A study of Homo sapiens with 6 samples.

Results

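Human chromosome 19 carries 248 protein-coding genes whose symbol is ZNF followed by a number, out of 19785 protein-coding genes examined. They were chosen by symbol and chromosome alone, from the GENCODE annotation on the hg19 build. Myc ChIP-seq, which maps the DNA that the transcription factor Myc occupies in crosslinked chromatin, was compared at their starts in 2 cell lines. Parental 231 cells are unedited MDA-MB-231, a human triple-negative breast cancer line. TKO cells are MDA-MB-231 in which TXNIP, the gene of thioredoxin interacting protein, was knocked out by CRISPR-Cas9, followed by isolation from single cells, so that TKO stands for edited clonal cells. Both lines were grown in DMEM with fetal bovine serum, non-essential amino acids and antibiotics. Each had 2 Myc libraries made with the same antibody. The study describes these as biological replicates, and the labels do not say how they were separated.

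Most proteins of this family bind DNA through an array of C2H2 zinc fingers and carry a KRAB box near the amino end. The KRAB box recruits TRIM28, which brings the histone methyltransferase SETDB1 and heterochromatin proteins to the bound site, and many family members silence retroelements in this way. The genes multiplied by tandem duplication and lie in clusters, of which chromosome 19 holds more than any other human chromosome. Myc binds DNA with its partner MAX, preferentially at the E-box CACGTG.

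A gene was called bound in a library when the summit of at least 1 deposited peak lay within 1 kb of any of its basic protein-coding transcription start sites (TSS). Such a peak is called a promoter peak here. The 248 genes had 738 such starts, between 1 and 12 per gene. The peak lists held 3720 and 5719 peaks in parental replicates 1 and 2, and 27213 and 25887 in TKO replicates 1 and 2. Depth recovered from the lists was 26.4 and 22.2 M reads in the parental libraries and 19.95 and 13.0 M reads in the TKO libraries. This estimates the reads used in peak calling, under an assumed genome size. The handling of duplicate reads is not given, so it does not show how deeply each library was sequenced. The knockout itself could not be checked, since peak lists hold no expression.

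The sequences at 9 summits show the kinds of promoter at issue, on the plus strand of hg19 as called in TKO replicate 1. Capitals mark CACGTG, its close relative CACGCG (or CGCGTG on the other strand) and the ETS motif CCGGAAGT. ZNF460 (chr19:57791199-57791299) and ZNF331 (chr19:54041070-54041170) were bound in all 4 libraries and hold CACGTG beside the summit, and ZNF787 (chr19:56631828-56631928) was bound in all 4 and holds none of these motifs in the window shown. ZNF554 (chr19:2819719-2819819) and ZNF581 (chr19:56154883-56154983) were bound in TKO libraries only. These windows contain no annotated exon.
ZNF460: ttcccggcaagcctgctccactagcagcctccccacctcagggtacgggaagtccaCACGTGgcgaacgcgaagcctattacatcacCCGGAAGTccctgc
ZNF331: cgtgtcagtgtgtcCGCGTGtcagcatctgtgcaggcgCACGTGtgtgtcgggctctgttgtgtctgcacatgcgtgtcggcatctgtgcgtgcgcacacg
ZNF787: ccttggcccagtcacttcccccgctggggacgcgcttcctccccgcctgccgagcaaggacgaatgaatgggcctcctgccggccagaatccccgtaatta
ZNF554: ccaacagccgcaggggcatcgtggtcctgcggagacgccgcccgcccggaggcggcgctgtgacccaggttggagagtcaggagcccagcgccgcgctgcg
ZNF581: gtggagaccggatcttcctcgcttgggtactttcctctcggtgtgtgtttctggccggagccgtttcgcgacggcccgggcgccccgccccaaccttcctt

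The remaining summits lie partly or wholly in annotated exon sequence and are shown by 30 bases only. ZNF146 and ZNF565 share 1 peak (chr19:36706066-36706095) that was called in all 4 libraries, as was the peak of ZNF529 (chr19:37064078-37064107). The head-to-head genes ZNF829 and ZNF568 share a peak (chr19:37407102-37407131) that was called in both TKO libraries only, and ZNF600 (chr19:53289995-53290024) was bound in both TKO libraries only.
ZNF146/ZNF565: ggcccctgggtcCACGTGgcgcgaaagtag
ZNF529: ggctcccggctcCACGTGgaccgacctcgc
ZNF829/ZNF568: ttgcgggtcgccgtagcgctgcgcaatgga
ZNF600: ggaccttcactcCACGCGatccgcttccgg

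To determine how many of these promoters Myc occupied in each line, bound genes were counted per library. Of the 248 ZNF genes, 29 and 35 were bound in parental replicates 1 and 2, and 172 and 179 in TKO replicates 1 and 2. The parental shares were 11.7% (95% confidence interval 7.97 to 16.4) and 14.1% (10.0 to 19.1), beside 12.2% and 12.9% of all protein-coding genes. The TKO shares were 69.4% (63.2 to 75.03) and 72.2% (66.2 to 77.7), beside 49.1% and 49.7% of all genes. The parental shares were thus near the background and the TKO shares above it. The intervals are exact Clopper-Pearson intervals and cover counting error only.

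The mean number of bound ZNF genes was 32.0 ± 4.24 (SD, n = 2) in parental 231 cells and 175.5 ± 4.95 (SD, n = 2) in TKO cells, a ratio of 5.48. The ranges did not overlap, and the exact two-sided permutation test over libraries gave p = 0.33, the smallest value that 2 against 2 allows. The ratio moved with the length of the lists. When each list was cut to its 3720 strongest peaks by fold, 29 and 19 ZNF genes were bound in the parental libraries and 28 and 28 in the TKO libraries, a ratio of 1.17 (exact permutation p = 1.0). The larger number in TKO cells therefore lay in peaks beyond the 3720 strongest.

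**Figure D1:**
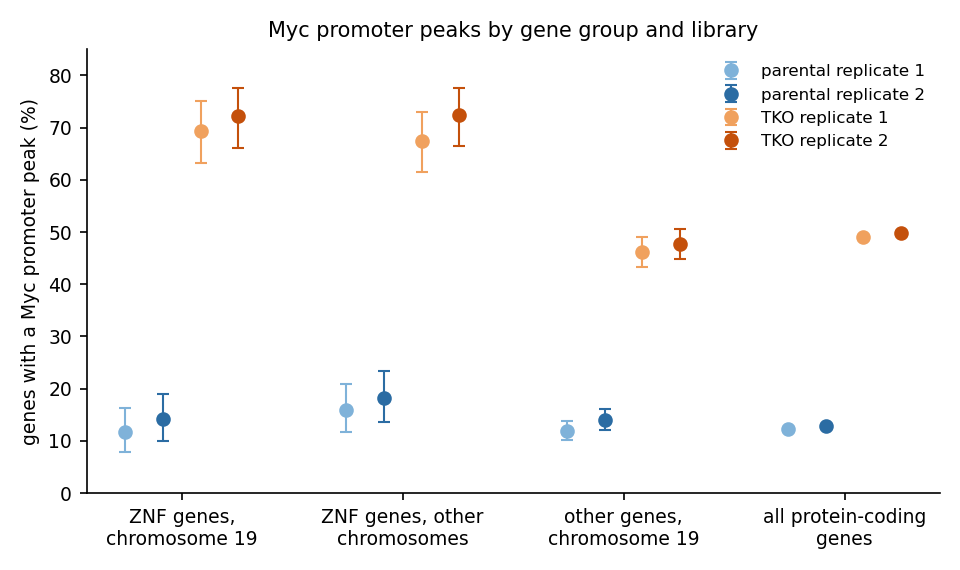
Share of genes with a Myc promoter peak (%) in each of the 4 libraries, for ZNF genes of chromosome 19, ZNF genes of other chromosomes, the other genes of chromosome 19 and all protein-coding genes. Points are single libraries and bars are exact 95% intervals of counting error (none drawn for all genes). Both ZNF groups sit between 67.4% and 72.3% in TKO libraries, and the other genes of chromosome 19 at 46.2% and 47.8%.

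To ask whether the pattern belonged to the chromosome or to the gene family, the same shares were taken for 264 ZNF genes on other chromosomes and for 1185 other genes on chromosome 19. ZNF genes elsewhere were bound at 15.9% and 18.2% in parental libraries and at 67.4% and 72.3% in TKO libraries. The share of chromosome 19 ZNF genes minus theirs was -4.22 and -4.07 percentage points in parental libraries and 1.93 and -0.171 in TKO libraries. The mean difference of -1.63 did not pass an exact sign-flip permutation test over libraries (p = 0.375; the smallest possible is 0.125). The TKO value of this difference exceeded the parental one by 5.02 points (exact permutation p = 0.33, the smallest possible), but it was -3.62 among peaks with a fold of at least 5. The mean difference depended on the peaks and genes counted. It was -3.02 points among peaks with a −log10 q of at least 5, -5.75 among those with a fold of at least 5, -6.47 with lists of 3720 peaks each and -3.78 without genes that have another start within 1 kb. Under each of these 4 settings the ZNF genes of chromosome 19 had the lower share in all 4 libraries (exact sign-flip permutation p = 0.125, the smallest possible). With a 500 bp window the mean difference was 0.0122 points.

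The other genes of chromosome 19 were bound at 11.9% and 13.9% in parental libraries and at 46.2% and 47.8% in TKO libraries. In parental libraries the ZNF genes lay within 0.21 points of their neighbours, at -0.205 and 0.189. In TKO libraries they were 23.1 and 24.4 points higher. The mean over the 4 libraries was 11.9 points (exact sign-flip permutation p = 0.375), and TKO minus parental was 23.8 points (exact permutation p = 0.33, the smallest possible). With lists of 3720 peaks each, the mean difference was -1.39 points.

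Calls were compared between the replicates of a line. Both TKO libraries called 161 ZNF genes, with 11 called in replicate 1 only and 18 in replicate 2 only. The summits of these shared calls lay a median of 59 bp apart. Both parental libraries called 22, with 7 and 13 called in 1 of them, and a median summit distance of 37 bp. No ZNF gene of chromosome 19 was bound in a parental library without being bound in both TKO libraries, which was the case for 54 of all 19785 genes.

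By pattern, 22 of the 248 genes were bound in all 4 libraries, which was 8.87%, near the 9.32% of all genes. A further 20 (8.06%) were bound in both TKO libraries and 1 parental library, beside 6.16% of all genes and 10.6% of ZNF genes elsewhere. The largest group, 119 genes or 48.0%, was bound in both TKO libraries and neither parental one, beside 29.8% of all genes and 42.4% of ZNF genes elsewhere. Another 29 (11.7%) were bound in 1 TKO library only, beside 8.203% of all genes and 10.2% of ZNF genes elsewhere. The remaining 58 genes, 23.4%, had no promoter peak in any library, beside 46.3% of all genes and 24.6% of ZNF genes elsewhere.

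The promoter window mattered little to these counts. A 500 bp window gave 28, 33, 169 and 175 bound genes in parental replicates 1 and 2 and TKO replicates 1 and 2, and a 3 kb window gave 29, 35, 173 and 180. Near the 1 kb edge, the summit of ZNF93 in TKO replicate 2 lay 924 bp downstream of a start, and that of ZNF787 lay 740 to 778 bp downstream in the 4 libraries.

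To see how strong Myc occupancy was where it could be read in both lines, reads at the summit were recovered from the fold and p-value of each peak and given per M reads in the library (RPM, reads per 1000000). The 10 genes shown were those bound in all 4 libraries that ranked highest by fold, averaged over both TKO lists. ZNF460, a KRAB zinc-finger gene of the most distal cluster (chr19:57791419-57805437), had the highest summit, with 3.44 and 4.33 RPM in parental libraries and 7.67 and 7.28 in TKO libraries. Its summit lay 162 to 176 bp upstream of the start in all 4 libraries. Every TKO value exceeded every parental value.

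ZNF121, a gene with 9 fingers by the pattern used here and no KRAB match, had 2.76 and 2.39 RPM in parental libraries and 6.21 and 6.75 in TKO libraries. ZNF331, an imprinted gene, had 1.29 and 1.35 in parental libraries and 3.06 and 4.91 in TKO libraries. The shared peak of ZNF146, which encodes a protein made almost wholly of fingers, and ZNF565 had 2.497 and 2.16 in parental libraries and 5.81 and 6.75 in TKO libraries. None of these ranges overlapped between the lines. In each pair of libraries, TKO was also the higher at nearly all other genes bound in all 4 libraries, as counted below.

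The ZNF146 and ZNF565 peak also stood at different ranks in the lists. By fold it stood at percentiles 30.1 and 4.46 in the parental lists and at 98.8 and 99.0 in the TKO lists, which are longer, so that percentiles are not on 1 scale between the lines. Fold divides the summit reads by the local background, which was 9.58 and 11.3 times the genome-wide background in the parental lists and 3.71 in both TKO lists. The part of this background and of list length in the rank was not tested.

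ZNF587B had 1.70 and 1.76 RPM in parental libraries and 4.56 and 5.37 in TKO libraries. ZNF787 had 1.48 and 1.31 in parental libraries and 3.56 and 3.45 in TKO libraries. ZNF529, ZNF562 and ZNF507 had between 0.757 and 1.58 in parental libraries and between 2.21 and 4.06 in TKO libraries. At each of these 5 genes, too, both TKO values were above both parental values.

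**Figure D2:**
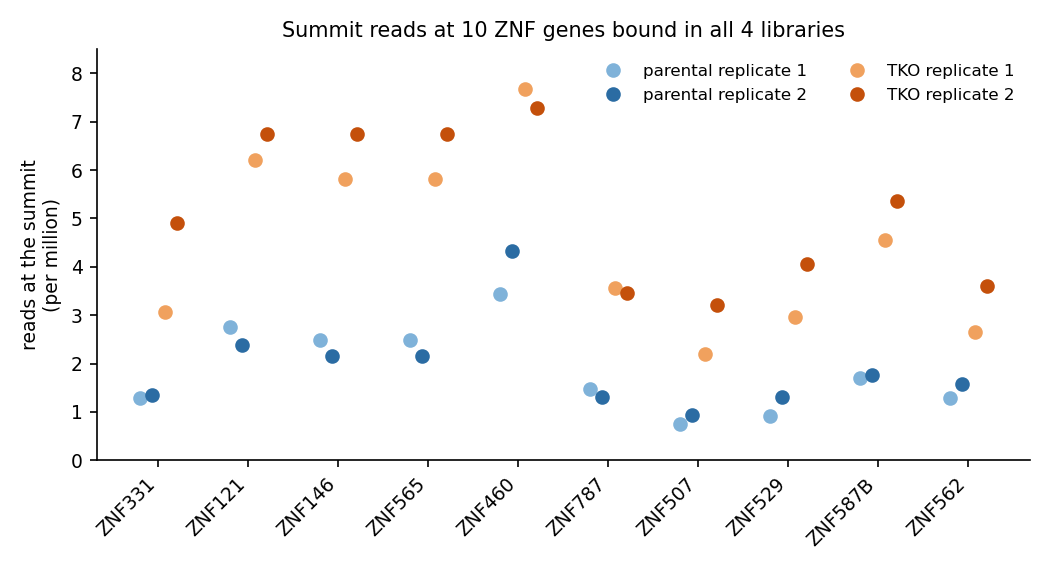
Reads at the Myc summit in RPM (vertical axis) for 10 ZNF genes bound in all 4 libraries, each point 1 library. Both TKO points lie above both parental points at every gene, from 2.21 and 3.22 against 0.757 and 0.946 at ZNF507 to 7.67 and 7.28 against 3.44 and 4.33 at ZNF460, and ZNF146 and ZNF565 repeat 1 shared peak. In each pair of libraries TKO is also the higher at nearly all other genes bound in all 4 libraries.

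The 22 genes bound in all 4 libraries hold 21 distinct peaks. The ratio of TKO to parental summit reads was above 1 at 21 of 21 peaks for each of the 4 pairs of libraries. At all other genes bound in all 4 libraries, it was above 1 at 1507 and 1501 of 1514 peaks for TKO replicate 1. For TKO replicate 2 it was above 1 at 1510 and 1508 of 1512, so this was not particular to the ZNF genes. The median ratio at the ZNF peaks was 2.33 and 2.30 for TKO replicate 1 against parental replicates 1 and 2, and 2.70 and 2.51 for TKO replicate 2. The mean of the 4 medians was 2.46, beside 2.55 for all other genes bound in all 4 libraries. The ratio at single ZNF peaks ran from 1.09 to 4.48. All these genes were taken for having a peak everywhere, so the values are a description. The longer extension in TKO lists was not corrected for and can raise the ratio.

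The E-box was also counted at their promoters. CACGTG occurred in the 1 kb around the canonical start in 10 of the 22 genes bound in all 4 libraries (45.5%), and in 10 of the 119 bound in TKO libraries only (8.40%). Over all genes with these patterns the shares were 40.1% and 18.7%. Binding was counted at any start, so a peak may lie away from this sequence. This was so at ZNF587B, which counts among those 10 of 22 genes although its peak lay over 1 kb from the canonical start. ZNF146 and ZNF565 both count there and share 1 peak. Among the 10 named genes, CACGTG lay within 50 bp of the summit in all 4 libraries at ZNF460, ZNF331 and ZNF529, whose sequences are shown above, and in 3 libraries at ZNF146 and ZNF565. It was not found in this window at ZNF121, ZNF562, ZNF507, ZNF587B or ZNF787.

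The 119 genes bound in both TKO libraries and neither parental library were bound less strongly. Their median summit held 1.35 and 1.69 RPM in TKO replicates 1 and 2, against 2.98 and 3.53 at the genes bound in all 4 libraries. The genes bound in TKO and 1 parental library lay between, at 2.38 and 2.45. Over all 5887 genes with the pattern of the 119, the medians were also 1.35 and 1.69 RPM. Over all 1843 genes bound in all 4 libraries they were 3.41 and 3.83. The contrast was thus not particular to the ZNF genes, and the patterns were themselves set by called peaks. For scale, the 10th percentile of all promoter peaks in the parental lists was 0.794 and 0.856 RPM.

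The strongest of the 119, by rank in the TKO lists, was ZNF554, a KRAB zinc-finger gene outside the clusters (chr19:2819866-2836733). It stood at percentiles 96.9 and 97.6 with 2.05 and 2.68 RPM in TKO replicates 1 and 2. ZNF320 followed at 96.7 and 95.5, with 2.51 and 2.99 RPM. The others were ZNF581, ZNF805, ZNF30, ZNF606, ZNF614, ZNF550, ZNF600 and ZNF57, between percentiles 77.1 and 94.2. All 10 had their TKO summits within 119 bp of a start, and none had CACGTG within 50 bp of the summit.

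Members of known function fell into every pattern. ZNF93 and ZNF91 encode repressors of L1 and SVA retrotransposons. ZNF93 was bound in both TKO libraries, at percentiles 15.0 and 46.6, and ZNF91 only in TKO replicate 2, at percentile 7.22. ZNF649, also a repressor of L1 elements, was bound only in TKO replicate 2, at percentile 26.3. All stood below the middle of the lists and had no parental peak.

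ZNF274, whose protein recruits SETDB1 to ZNF genes themselves, had 1.08 RPM in parental replicate 2, no peak in parental replicate 1, and 2.05 and 2.22 in TKO libraries. ZNF473, whose product takes part in histone pre-mRNA processing, had 1.67 in parental replicate 2 and 2.76 and 3.45 in TKO libraries. ZNF180 was bound in all 4 libraries at 1.17, 1.13, 2.61 and 2.76 RPM, in the same order of libraries as above. ZNF568, a regulator of placental Igf2 expression in mice, had no parental peak and 2.05 and 1.99 in TKO libraries.

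ZNF43 and ZNF85 belong with ZNF91 and ZNF93 to the primate-expanded cluster near the centromere. ZNF43 had 0.811 RPM in parental replicate 2 and 1.70 and 1.61 in TKO libraries, and was the single gene of that cluster with any parental peak. ZNF85 had 1.30 and 1.46 in TKO libraries only. ZNF382, reported to be silenced by methylation in tumours, had no promoter peak in any library, nor did ZNF556, ZNF358, ZNF177, ZNF560, ZNF491, ZNF763, ZNF433, ZNF442, ZNF101 and ZNF486, the first 10 such genes along the chromosome.

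To describe the binding along the chromosome, genes were grouped into runs whose neighbours start within 500 kb of each other. Of the 248 genes, 224 fell into 8 clusters of at least 10 genes and 24 lay outside. The group nearest the short-arm telomere, cluster 1 (8.58 to 9.88 Mb, 14 genes), had 5 and 5 bound genes in parental libraries and 11 and 11 in TKO libraries. Cluster 2 (11.6 to 12.7 Mb, 25 genes) had 0 and 0 in parental libraries and 17 and 19 in TKO libraries. A count of 0 in these libraries says that no peak passed the authors' threshold there, not that Myc was absent.

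Cluster 3 (19.8 to 24.2 Mb, 37 genes) is the one nearest the centromere on the short arm and holds the ZNF91 subfamily. It had 0 and 1 bound genes in parental libraries and 17 and 19 in TKO libraries, 45.9% and 51.4%, close to the background of all genes. Of its 37 genes, 15 had no peak in any library. Within it, the bin that starts at 22 Mb had 1 of 8 genes bound in each TKO library, and that gene was ZNF43.

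On the long arm, cluster 4 (36.7 to 38.3 Mb, 26 genes) had the highest TKO shares, with 6 and 8 bound genes in parental libraries and 23 and 23 in TKO libraries. Cluster 6 (52.1 to 54.0 Mb, 40 genes) had 3 and 1 in parental libraries and 33 and 35 in TKO libraries. In the bin that starts at 53 Mb, 20 and 19 of 21 genes were bound in TKO libraries and 1 and 0 in parental libraries.

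Cluster 5 (44 to 45 Mb, 23 genes) had 2 and 2 bound genes in parental libraries and 15 and 15 in TKO libraries. Cluster 7 (56.0 to 57.2 Mb, 16 genes) had 2 and 3 in parental libraries and 8 and 8 in TKO libraries. Cluster 8 (57.7 to 59.0 Mb, 43 genes) had 6 and 8 in parental libraries and 30 and 31 in TKO libraries. All 8 clusters had more bound genes in each TKO library than in each parental library. Over all genes the share was likewise higher, at 49.1% and 49.7% in TKO libraries against 12.2% and 12.9% in parental libraries. The direction was thus not particular to the clusters.

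The 24 genes outside clusters were bound at 20.8% and 29.2% in parental libraries and 75% in both TKO libraries. Genes on the plus strand, 134 of 248, were bound at 9.70% and 14.9% in parental libraries and 72.4% and 71.6% in TKO libraries. Those on the minus strand were bound at 14.04% and 13.2%, and at 65.8% and 72.8%. No difference by strand held in both replicates of a line.

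**Figure D3:**
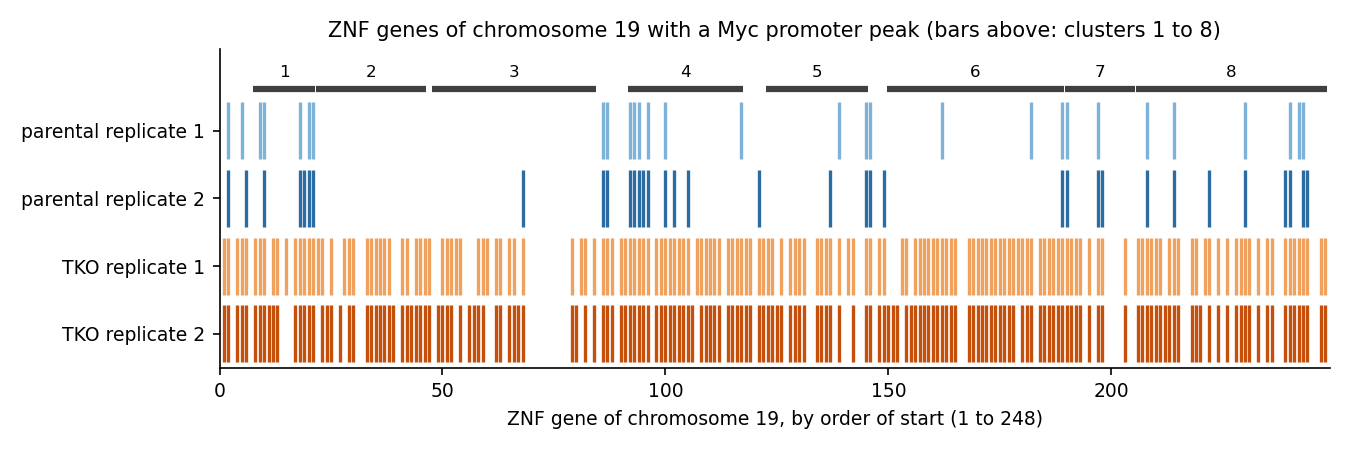
The 248 ZNF genes of chromosome 19 in order of their start (horizontal axis, rank from 1 to 248), with a tick where the gene had a Myc promoter peak, 1 row per library. Bars above mark clusters 1 to 8. Parental rows are empty over cluster 2 and hold 1 tick in cluster 3, where TKO rows have gaps, and TKO rows are nearly full over clusters 4 and 6.

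To compare strength within a list, each bound gene was represented by its strongest promoter peak, ranked by fold. The median percentile of the chromosome 19 ZNF genes was 52.1 and 45.7 in parental lists and 57.9 and 58.3 in TKO lists. For ZNF genes elsewhere it was 55.2, 56.8, 71.1 and 71.9. The differences were -3.07, -11.1, -13.2 and -13.7, all in 1 direction. Their mean of -10.3 had an exact sign-flip permutation p = 0.125, the smallest that 4 libraries allow.

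Among the 3720 strongest peaks of each list this mean difference was 7.25. Background and reads were taken over all distinct promoter peaks, not only the strongest of each gene, so the peaks differ from those ranked above. In TKO replicate 1, the local background relative to the genome was higher at promoter peaks of chromosome 19 ZNF genes, with a median of 3.38 against 2.49 for ZNF genes elsewhere, and in TKO replicate 2 it was 3.26 against 2.62. In parental replicate 1 the order was the other way, at 3.29 against 3.48, and in parental replicate 2 it was 3.66 against 3.23. In summit RPM the TKO medians over all distinct promoter peaks were equal, at 1.35 and 1.35 in replicate 1 and 1.69 and 1.69 in replicate 2. The part of the background in the lower percentile was not tested.

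**Figure D4:**
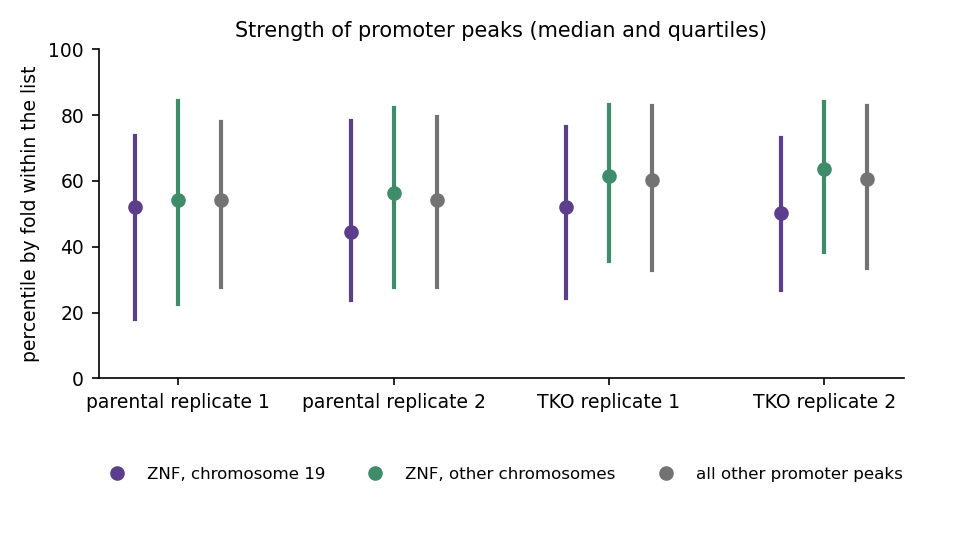
Percentile by fold within each list (vertical axis) of all distinct promoter peaks of ZNF genes of chromosome 19, of ZNF genes of other chromosomes and of all other genes. Points are medians and lines run between the quartiles. The chromosome 19 medians are 52.1, 44.5, 52.1 and 50.2 in parental replicates 1 and 2 and TKO replicates 1 and 2, below both other groups in each list.

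The distance of summits from starts was measured next. In TKO replicates 1 and 2 the median distance of the strongest summit from the nearest start was 84 bp in both, against 150 and 147 bp over all genes. Of 172 and 179 bound ZNF genes, 81.4% and 77.7% had this summit within 200 bp, against 57.8% and 59.1% over all genes and 72.5% and 70.7% for ZNF genes elsewhere. The summits were at or downstream of the start at 57.6% and 56.4%, against 44.6% and 44.1% over all genes. In parental libraries, with 29 and 35 genes, these last shares were 51.7% and 37.1%, against 38.5% and 33.2% over all genes. The median distance there was 107 and 126 bp, against 107.5 and 108 bp over all genes. Within 200 bp were 72.4% and 71.4% of the bound ZNF genes in parental libraries, against 65.6% and 66.8% over all genes and 85.7% and 79.2% for ZNF genes elsewhere, so the order against ZNF genes elsewhere was opposite to that in TKO libraries.

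Some genes held more than 1 promoter peak. In TKO replicates 1 and 2, 36 and 41 ZNF genes did, with at most 5 peaks at a gene. In parental replicates 0 and 1 did. No share over all genes is given beside this count, so it is not read as a trait of the ZNF genes.

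The E-box was compared at the summits. CACGTG lay within 50 bp of the summit in 5 of 28 and 6 of 35 distinct promoter peaks of the ZNF genes in parental libraries (17.9% and 17.1%), and in 13 of 206 and 12 of 215 in TKO libraries (6.31% and 5.58%). In all other promoter peaks the shares were 22.3%, 18.5%, 8.201% and 7.30%. At peaks of ZNF genes elsewhere they were 16.3%, 18.75%, 5.81% and 3.67%, so a low share was not particular to chromosome 19. The differences to all other promoter peaks were -4.42, -1.36, -1.89 and -1.72 points, with a mean of -2.35 (exact sign-flip permutation p = 0.125, the smallest possible). The mean was 0.226 among peaks with a fold of at least 5 and 1.05 among the 3720 strongest peaks. With CACGTG counted within 100 bp of the summit it was -5.96 points (exact sign-flip permutation p = 0.125). In windows 1 kb to either side of the ZNF peaks, CACGTG was found in 0% to 1.16%.

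The ETS motif CCGGAAGT, searched on both strands, lay within 50 bp of the summit in 7.14% and 11.4% of parental promoter peaks of the ZNF genes. These were only 2 of 28 and 4 of 35 peaks. In TKO libraries the shares were 4.37% and 4.19%. In all other promoter peaks it was found in 4.30%, 4.38%, 2.16% and 2.40%. At peaks of ZNF genes elsewhere the shares were 2.33%, 4.17%, 4.56% and 5.31%, so the TKO shares were not particular to chromosome 19. The AP-1 motif (TGACTCA or TGAGTCA) was found at 1, 0, 2 and 1 ZNF peaks in the same order of libraries.

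In the 1 kb around the canonical start, available for 245 of the 248 genes, CCGGAAGT occurred in 22.0%, against 16.3% for ZNF genes elsewhere and 7.95% of all genes. CACGTG occurred in 11.4%, against 12.9% and 18.3%. Among ZNF genes elsewhere, 95.3% of those with CCGGAAGT in this window were bound in each TKO library, against 62.3% and 68.2% of those without. On chromosome 19 the shares were 68.5% and 66.7% with the motif and 70.2% and 74.3% without. Binding was again counted at any start. A match is a description of the letters and not of a bound factor.

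Starts were also grouped by CpG content. The observed to expected ratio of CpG in the 1 kb at the canonical start had a median of 0.712, against 0.763 for ZNF genes elsewhere. Binding was counted at any start, so a bound gene may have its peak away from the sequence measured. Of 16 ZNF genes of chromosome 19 with a ratio under 0.5, 56.3% and 62.5% were bound in TKO replicates 1 and 2. Among the bound ones, ZNF587B and ZNF254 had their peak at another start, over 1 kb from the canonical one. Of 5397 genes overall with such a ratio 10.4% and 10.8% were bound, and of 26 ZNF genes elsewhere 19.2% and 23.1%. Within this range the median ratio was 0.438 for the ZNF genes of chromosome 19, 0.235 overall and 0.249 for ZNF genes elsewhere. The groups thus differed in CpG content even within the range. Between 0.5 and 0.75 the ZNF genes of chromosome 19 were bound at 69.2% and 71.2%, against 57.9% and 58.9% overall and 72.2% and 74.2% of ZNF genes elsewhere.

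Within chromosome 19, cluster 3 had the lowest median CpG ratio, 0.538, and cluster 8 the highest, 0.756. The ratios at 0.75 and over went with parental binding of 20.5% and 21.7% and TKO binding of 73.5% and 77.1%, against 68.6% and 69.1% of all genes and 73.6% and 80.7% of ZNF genes elsewhere of that range in TKO libraries.

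**Figure D5:**
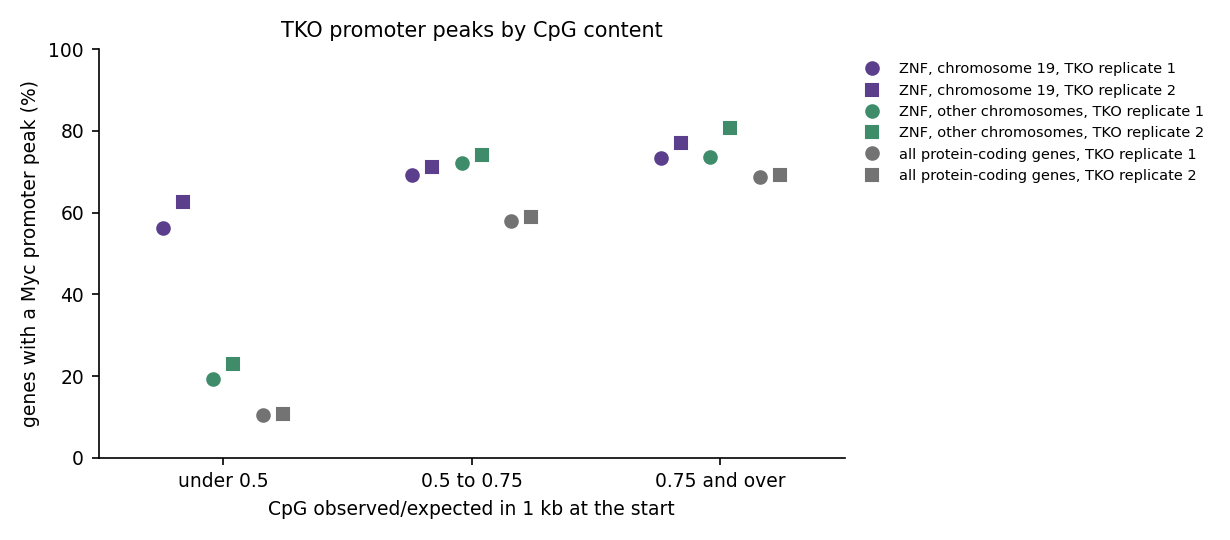
Share of genes with a Myc promoter peak (%) in TKO replicate 1 (circles) and replicate 2 (squares), by the CpG observed to expected ratio in 1 kb at the canonical start. Peaks were counted at any start of the gene. In the lowest group the ZNF genes of chromosome 19 stand at 56.3% and 62.5% and all protein-coding genes at 10.4% and 10.8%. The median ratio in this group is 0.438 for the ZNF genes of chromosome 19 and 0.235 for all genes, so their CpG content differs.

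The protein products were described by patterns searched in translated canonical transcripts, available for 244 genes. A KRAB pattern was found in 207, or 84.8%, against 43.8% of ZNF genes elsewhere, and the median number of C2H2 fingers was 12.5 against 9. Genes with the KRAB pattern were bound at 9.66% in both parental libraries and at 69.6% and 72.9% in TKO libraries. The 37 without it were bound at 24.3% and 35.1% in parental libraries and 70.3% in both TKO libraries. Among ZNF genes elsewhere the order in parental libraries was the other way, with 17.7% and 24.8% for genes with the pattern and 14.5% and 13.8% for those without. The pattern misses divergent KRAB boxes, so no match does not show that the box is absent.

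Summits of different ZNF genes shared sequence. In TKO replicate 1, windows of 201 bases at the strongest summits were compared, and 56 of 163 distinct peaks (34.4%) shared an identical run of at least 20 bases with the peak of another ZNF gene of chromosome 19. In TKO replicate 2 it was 46 of 170, and in parental replicates 0 of 28 and 4 of 34. A list with more ZNF peaks offers more possible partners, so these shares cannot be compared between the lines. Only ZNF genes of chromosome 19 were compared in this way. Of the 67 pairs in TKO replicate 1, 65 were within 1 cluster. The longest run, 70 bases, was shared by ZNF799 and ZNF443 in cluster 2, and 2 pairs shared a run at least as long as the 50-base reads. Binding at such pairs is uncertain, since a read within the run cannot be placed at 1 of the 2 genes.

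The run shared most widely in cluster 3 was found at 5 of 17 peaks, those of ZNF506, ZNF85, ZNF430, ZNF431 and ZNF675, and that in cluster 2 at 3 of 16, those of ZNF439, ZNF799 and ZNF443. Each is given on the minus strand at the first of these genes, and no capitals are used because no motif was searched in them.
Cluster 3 run: aagcctagaaatggtgagag
Cluster 2 run: agcacacgcaccatttcccg

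Many starts lay near another gene. Another protein-coding start was within 1 kb at 38 of the 248 genes, and 36 and 37 of these were bound in TKO replicates 1 and 2 (94.7% and 97.4%), against 64.8% and 67.6% of the other 210. For ZNF genes elsewhere, these shares were 70.3% and 75.7% with such a start and 67.0% and 71.8% without. A summit between such starts counts for both genes, which cannot be told apart. In 9 pairs, 18 ZNF genes in all, both partners were assigned a shared peak, among them ZNF490 with ZNF791, ZNF345 with ZNF790, and ZNF559 with the readthrough gene ZNF559-ZNF177.

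The proteins through which KRAB zinc-finger proteins act were counted from a list of 25 genes on many chromosomes. Of these, 6 and 6 were bound in parental libraries and 22 and 22 in TKO libraries, and 13 were bound in both TKO libraries and neither parental one. Of all genes, 12.2% and 12.9% were bound in parental libraries, 49.1% and 49.7% in TKO libraries, and 29.8% in both TKO libraries and neither parental one. TRIM28, which also lies on chromosome 19, had no parental peak and 1.85 and 2.84 RPM in TKO replicates 1 and 2. SETDB1 had no parental peak and 2.31 and 3.07. The list is short and genes are not replicates, so no test was made.

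CBX5, which encodes the heterochromatin protein HP1 alpha, was bound in all 4 libraries with 1.89 and 1.85 RPM in parental and 4.61 and 4.14 in TKO libraries. SMARCAD1, HDAC2, EHMT1 and SUV39H2 were the other 4 bound in all 4 libraries. The DNA methyltransferase gene DNMT3B was the single listed gene without a peak in any library. ATF7IP, MPHOSPH8, PPHLN1 and TASOR, whose products work with SETDB1, were bound in both TKO libraries only.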

How the data were processed

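Myc ChIP-seq was done in parental 231 and TKO cells, with 2 Myc libraries each and 1 input per line, and groups came from the sample titles. Per the submitters' processing notes and methods, single-end reads were aligned to hg19 with Novoalign 3.08.02 and peaks were called per library with MACS2 2.1.1.20160309 against input. How duplicate reads were handled is not given in the sources used here. The authors deposited, for each peak, a score, a fold (the ratio of summit reads to local background), a −log10 p-value and a −log10 q-value, whose lowest value was 2.03 to 2.07.

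Fold and p-value were solved for whole summit reads, which matched within 0.002 on the −log10 scale at 100% of peaks. For this, a genome size of 2700000000 was assumed, and depth follows from it. Reads at a summit include fragments extended by 140 and 151 bp in parental lists and 182 and 201 bp in TKO lists. This can raise TKO RPM relative to parental RPM. GENCODE v44 lifted to GRCh37 gave 19785 genes and 55869 starts. Shares carry exact 95% intervals of counting error. Libraries, not genes, were permuted, and no test could pass 0.05. KRAB boxes, C2H2 fingers and shared runs were searched after the data were seen, in canonical transcripts (KRAB in the first 250 residues) and summit windows.

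The genes, lists and rules were chosen with earlier results of these data known. Genes named were the 10 bound in all 4 libraries and the 10 bound in both TKO libraries only of highest mean TKO percentile, any bound in a parental but not both TKO libraries (there were none), the first 10 unbound, 12 of known role and the first 5 pairs sharing a peak. The bin at 53 Mb and genes in shared runs were picked out after their values were seen. Alternatives were a −log10 q or fold of at least 5, lists of equal length, windows of 500 bp and 3 kb, any overlap, 1 start per gene, genes with near starts left out, each library left out, a replicate block, a motif window of 100 bp, ranking by p-value, fold for summit reads and a cluster gap of 250 kb. Calculations ran in Python 3.11.15 with pandas 2.3.3, numpy 2.4.6, biopython 1.88, scipy 1.17.1 and matplotlib 3.10.9, and the steps were tested on simulated data.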

Additional observations from a re-analysis of the deposited data

How the results depend on the processing

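Over 81 alternative values, 72 kept their direction or approximate size, 7 reversed and 2 moved in size, and the cause was not tested. For the summit ratio and the cluster count, only size was judged. With lists of 3720 peaks each, the ratio of bound ZNF genes was 1.17 in place of 5.48. In those lists the difference to other chromosome 19 genes was -1.39 points, the percentile difference 7.25, the E-box difference 1.05 points, and TKO minus parental of the difference to other ZNF genes -3.88 points. With a fold of at least 5, the last was -3.62 points and the E-box difference 0.226 points. With a 500 bp window, the difference to other ZNF genes was 0.0122 points, and over the settings other than left-out libraries it ran from -6.47 to 0.0122 points. By fold in place of reads, the summit ratio was 1.91 in place of 2.46. Leaving out each library in turn kept the ratio of bound genes between 5.01 and 6.05 and the difference to other ZNF genes between -2.82 and -0.770 points. No test could pass 0.05 in this design, so the p-values say nothing about stability.

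Blocking by replicate number gave a ratio of bound genes of 5.51 as a geometric mean over same-numbered pairs. The block was run for this result alone. The samples share only a number: over 1843 genes bound in all 4 libraries, the deviations of same-numbered libraries from their group means correlated at r = 0.0722.

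Depth bears on peak calls in a library, and a gene without a peak may be bound below the threshold. With a cluster gap of 250 kb, 193 genes lay in 8 clusters.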

Other observations

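Peaks inside the genes but over 1 kb from any protein-coding start were few at the ZNF genes of chromosome 19. They were found in 1 and 3 of 248 genes in parental replicates 1 and 2 and in 18 and 12 in TKO replicates 1 and 2. Per Mb of gene, with a peak and its sequence counted once for each gene that holds them, TKO libraries had 3.41 and 2.14 such peaks in the ZNF genes, 3.77 and 3.77 in ZNF genes elsewhere, and 16.4 and 17.2 in the other genes of chromosome 19. In parental libraries these values were 0.126 and 0.505, 0.218 and 0.725, and 1.52 and 3.15. These are values of single libraries and were not tested.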
